A study of Arabidopsis thaliana with 12 samples.

Results

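In roots of Arabidopsis thaliana seedlings, 36 protein-coding genes carried higher transcript counts in the myb36-1 mutant than in wild type, both in sorted endodermis and in the whole root, by a rule set on these same libraries. Raw counts were divided by each library's total and are given as CPM, the count scaled to a library total of 1e6. A gene was a member when, in each tissue, its mutant mean reached 5 CPM, this mean was at least 2.5 times the wild-type mean, and all 3 mutant libraries lay above all 3 wild-type libraries. Of the 33602 loci counted, 41 met the rule, and 5 of them were on a list of 11 loci that the rule drops. The members include 3 glutathione transferases, 2 laccases, 2 class III peroxidases and 3 transcription factors. Among the rest are a flagellin-responsive receptor kinase, a pectin methylesterase and several genes of lipid metabolism.

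The study asked what the transcription factor MYB36 controls as root cells leave proliferation and differentiate. Seedlings were taken 6 days after exposure to light, and the 12 libraries fall into 4 groups of 3 biological replicates. Wild type was Col-0 and the mutant was myb36-1, and each was sampled as whole root, frozen at harvest, and as the endodermal population, obtained by digesting roots to protoplasts and sorting them by fluorescence before freezing. RNA from sorted cells was extracted with a different kit from that used for whole roots, so that cell type, protoplasting, sorting and kit cannot be told apart in a comparison of the tissues. The reporter used for sorting, the lesion in myb36-1 and the number of plants pooled per replicate do not appear in the labels.

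The endodermis is the cell layer around the vascular tissue. It seals its walls with the Casparian strip, a band of lignin, and later with suberin lamellae made of fatty acids and phenolics. MYB36 switches on genes that build the strip. Lignin is polymerised in the wall by peroxidases and laccases, which oxidise phenolic monomers. Plants also deposit lignin and suberin in answer to wounding and to molecular patterns of microbes, and such responses bring out receptor kinases, WRKY and MYB transcription factors, glutathione transferases and enzymes of defence metabolism.

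Total counts per library were 17721913 to 24274637 in wild-type sorted endodermis, 7280556 to 13427477 in mutant sorted endodermis and 19812171 to 22722091 in whole roots. No member had a count of 0 in any library, although 3 counts would correspond to as much as 0.412 CPM in the smallest library. MYB36 itself was at 181 ± 62.5 CPM in wild-type and 124 ± 60.8 CPM in mutant sorted endodermis (SD, n = 3), which did not pass the test (adjusted p = 0.273), and at 35.1 ± 2.09 against 19.4 ± 1.89 CPM in whole root (adjusted p = 0.00252). CASP1, a scaffold protein of the strip, was at 935 ± 308 against 79.1 ± 27.3 CPM in sorted endodermis (SD, n = 3, adjusted p = 0.000892). SCR, a regulator of endodermal identity, was higher in mutant sorted endodermis instead, at 277 ± 50.3 against 793 ± 216 CPM (adjusted p = 0.00351). Of the 6 endodermal markers, 4 were lower and 1 higher in mutant sorted endodermis, and 5 were lower and 0 higher in mutant whole root. Of these 6 genes, 5 were higher in wild-type sorted endodermis than in wild-type whole root. The 6 xylem and 3 phloem markers were all lower there, as were 2 of 3 stele and pericycle markers and the 1 cortex marker tested. Root cap markers were higher for 4 of 5 and lower for 1, and root hair and epidermis markers higher for 3 of 8 and lower for 2. In that comparison 33.4% of all tested genes were higher and 35.4% lower. The sorted groups also differed in other markers. The summed level of 5 root cap markers was 98.9 to 135 CPM in wild-type and 2.16 to 16.9 CPM in mutant sorted endodermis, that of 8 root hair and epidermis markers was 248 to 302 against 29.7 to 59.9 CPM, and that of 2 cortex markers was 0.305 to 1.03 against 6.18 to 15.4 CPM. In mutant sorted endodermis 4 of 5 root cap and 7 of 8 root hair and epidermis markers were called lower than in wild type, where 12.9% of tested genes were, and the cortex marker AED3 was called higher. In whole root 0 of either list were called lower. Their part in the members' values was not tested, and in bulk RNA fewer cells of a type and less RNA per cell cannot be told apart.

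The mutant to wild-type ratio of mean CPM had a median of 9.17 over the 36 genes in sorted endodermis, with a range of 2.96 to 51.0, and a median of 3.35 in whole root, with a range of 2.53 to 30.3. It was larger in sorted endodermis for 30 of the 36. The members were chosen by these ratios, levels and gaps of CPM, which carry no test here. With edgeR's quasi-likelihood test over all genes, 35 of the 36 were called higher in mutant sorted endodermis, where 15.6% of tested genes were (28.5% in either direction), and 36 of 36 in mutant whole root, where 3.25% were (6.1% in either direction). SDR2, a short-chain dehydrogenase, was the exception. The rule fixes these counts, and nothing is read from them.

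**Figure D1:**
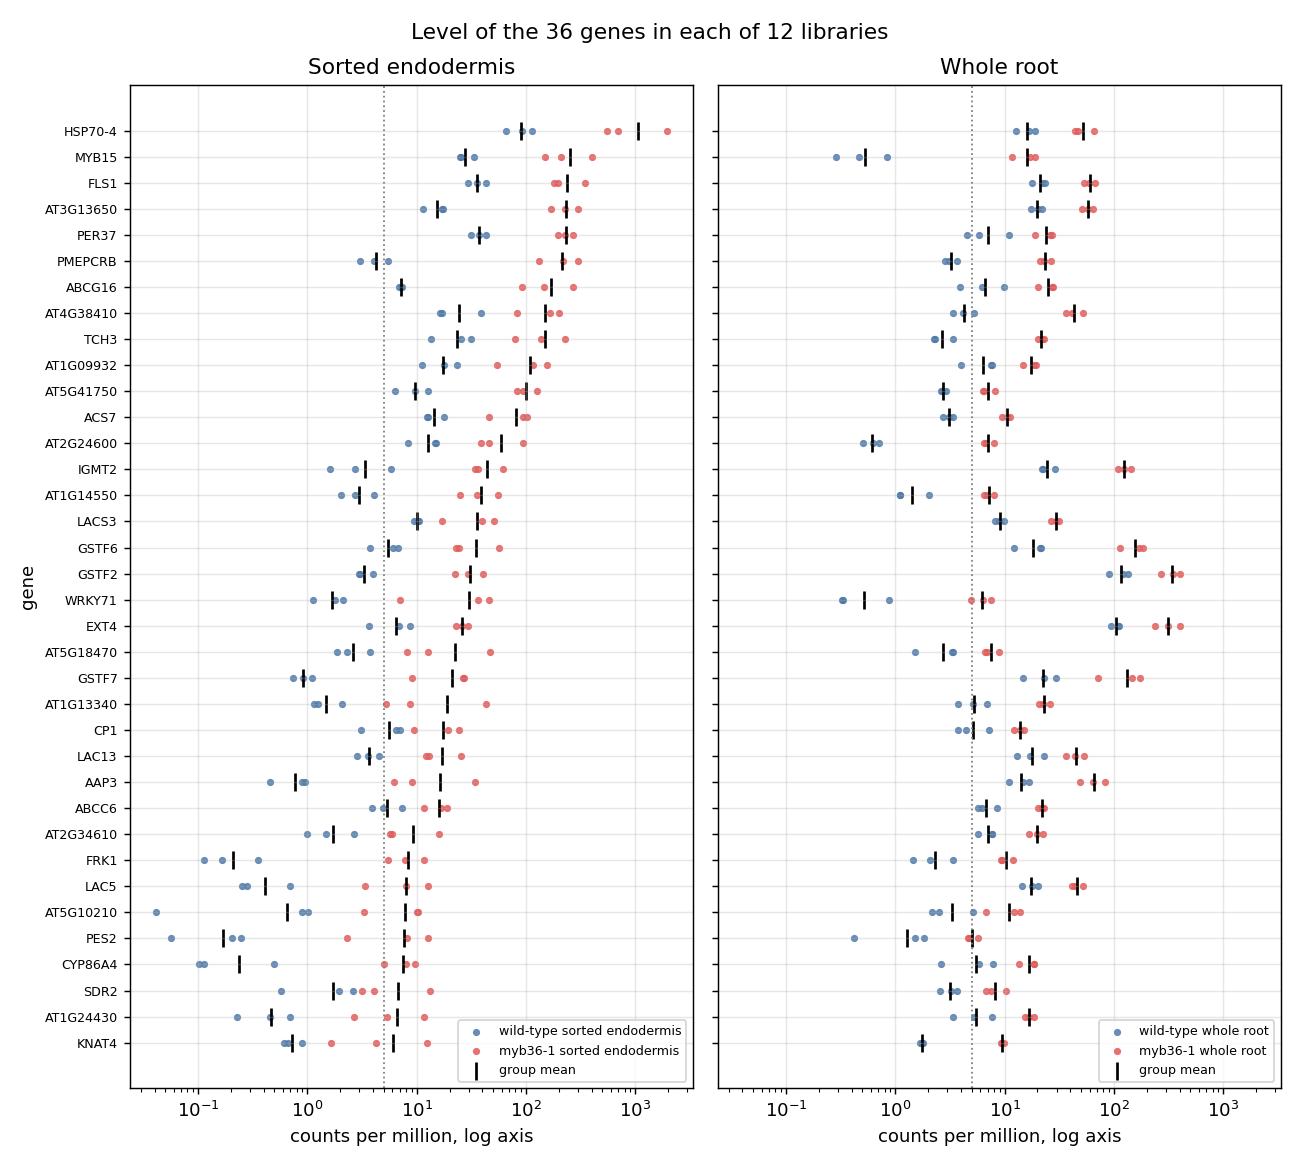
Level of each of the 36 genes in each of the 12 libraries, in CPM on a log axis, with sorted endodermis on the left and whole root on the right. Points are libraries (blue for wild type, red for myb36-1), black bars are group means and the dotted line marks 5 CPM. In both panels every red point of a gene lies to the right of its blue points, as the rule requires, and the red points are farther apart in sorted endodermis.

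Several members sit close to the thresholds. Just inside the ratio in sorted endodermis were ABCC6 at 2.96, CP1 at 3.18 and LACS3 at 3.58, and the nearest loci outside were 4CL3 at 2.22, AT4G31000 at 2.18 and cwINV6 at 1.42. In whole root LAC13 at 2.53, AT5G41750 at 2.57 and SDR2 at 2.61 were just inside, while PROPEP3 at 2.39, AT2G46420 at 2.35 and HIPL2 at 2.33 fell short. By mutant mean in sorted endodermis, KNAT4 at 6.11, AT1G24430 at 6.62 and SDR2 at 6.82 CPM were nearest to the minimum, and AT2G38390 at 4.32, AT4G03540 at 4.14 and ARPN at 3.52 CPM missed it. In whole root PES2 at 5.02, WRKY71 at 6.26 and AT5G41750 at 7.02 CPM were just inside, and WRKY30 at 4.65, GPAT1 at 3.98 and CNGC19 at 3.46 CPM just outside.

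Among the regulators, MYB15, an activator of defence-induced lignin and coumarin genes, had the largest ratio in whole root, 30.3. Its level there was 0.836, 0.464 and 0.287 CPM in the wild-type libraries and 19.1, 17.2 and 11.8 CPM in the mutant ones. In sorted endodermis it was 33.6, 24.7 and 25.6 CPM in wild type and 400, 150 and 210 CPM in the mutant, a ratio of 9.06. MYB15 was thus already well counted in sorted wild-type cells and under 1 CPM in intact wild-type roots. Between the tissues it differed by 5.92 ± 0.30 (log2, SE) in wild type (adjusted p = 3.6e-07), more than any other member. WRKY71, a factor known from shoot branching, was at 1.78, 2.14 and 1.13 CPM in wild-type sorted endodermis and at 7.0, 36.2 and 46.4 CPM in the mutant, and in whole root at 0.88, 0.325 and 0.334 against 6.36, 7.52 and 4.89 CPM. The first mutant sorted library was low for it. KNAT4, a KNOX homeobox gene of class II, was at 0.611, 0.659 and 0.903 CPM in wild-type and 4.25, 12.4 and 1.65 CPM in mutant sorted endodermis. In whole root its libraries were close together, at 1.67, 1.81 and 1.77 CPM in wild type and 9.39, 9.34 and 9.96 CPM in the mutant.

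The perception and signalling genes included FRK1, a receptor-like kinase widely used as a marker of the flagellin response. It was at 0.356, 0.165 and 0.113 CPM in wild-type sorted endodermis and 5.51, 7.75 and 11.8 CPM in the mutant, a ratio of 39.6, and in whole root at 2.07, 1.44 and 3.39 against 9.39, 11.9 and 9.27 CPM. The wild-type sorted values lie close to the level of 3 counts. AT5G41750, annotated as a TIR-NBS-LRR disease resistance protein, was at 9.62, 6.39 and 12.8 CPM in wild-type and 126, 83.2 and 94.8 CPM in mutant sorted endodermis, but only at 2.68, 2.6 and 2.91 against 6.31, 6.51 and 8.25 CPM in whole root. TCH3, a calmodulin-like protein first found as touch-inducible, was at 31.3, 13.5 and 25.6 against 229, 79.9 and 138 CPM in sorted endodermis and at 3.39, 2.32 and 2.25 against 20.1, 22.1 and 22.9 CPM in whole root. ACS7, an enzyme that makes the ethylene precursor ACC, was at 12.7, 17.8 and 12.5 against 46.1, 102 and 94.1 CPM and at 2.73, 3.39 and 3.11 against 9.54, 10.5 and 11.3 CPM. Both were higher in sorted endodermis than in whole root in each genotype. AT5G18470, annotated as a mannose-binding lectin, had means of 2.63 and 22.5 CPM in sorted endodermis, with 46.5 CPM in the first mutant library and 8.25 and 12.6 CPM in the others.

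The wall enzymes of phenolic oxidation were 2 laccases and 2 peroxidases. LAC5 was at 0.254, 0.7 and 0.282 CPM in wild-type and 3.35, 12.8 and 7.97 CPM in mutant sorted endodermis, and at 14.4, 17.9 and 20.1 against 41.1, 52.0 and 44.5 CPM in whole root. LAC13 was at 4.53, 3.63 and 2.82 against 13.0, 25.7 and 12.1 CPM in sorted endodermis and at 13.0, 23.1 and 17.1 against 44.3, 53.8 and 36.5 CPM in whole root. For LAC5 and LAC13 the whole-root level was above the sorted level in both genotypes. The peroxidases had the opposite distribution. PER37 was at 31.3, 43.2 and 37.3 CPM in wild-type and 195, 272 and 228 CPM in mutant sorted endodermis, and at 11, 4.55 and 5.78 against 27.0, 26.3 and 19.0 CPM in whole root. AT1G14550 was at 2.04, 4.04 and 2.76 against 55.1, 25.0 and 35.4 CPM in sorted endodermis and at 2.02, 1.11 and 1.1 against 6.46, 8.02 and 6.92 CPM in whole root. AT3G13650 belongs to the dirigent-like proteins, some of which steer the coupling of phenolic radicals. It was at 17.6, 11.5 and 17.2 CPM in wild-type and 302, 170 and 230 CPM in mutant sorted endodermis, and at 17.6, 22.1 and 20.2 against 51.0, 58.2 and 64.5 CPM in whole root. In wild type its difference between the tissues was -0.15 ± 0.18 (log2, SE) and did not pass the test (adjusted p = 0.474).

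Pectin and structural protein genes were PMEPCRB and EXT4. PMEPCRB, a pectin methylesterase, had the largest ratio of all in sorted endodermis, 51.0. It was at 3.05, 4.08 and 5.53 CPM in wild-type and 131, 218 and 297 CPM in mutant sorted endodermis, and at 3.7, 2.88 and 3.11 against 22.8, 26.6 and 21.3 CPM in whole root. Its 6 wild-type libraries lay within 2.88 to 5.53 CPM, whichever the tissue. EXT4, an extensin, was a gene of the whole root instead, at 112, 94.8 and 109 CPM in wild type and 400, 238 and 312 CPM in the mutant, against 3.66, 6.84 and 8.75 and then 26, 29.5 and 22.8 CPM in sorted endodermis.

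Fatty acid and export genes form another group. CYP86A4, a fatty acid omega-hydroxylase of the cutin pathway, was at 0.102, 0.494 and 0.113 CPM in wild-type and 4.99, 9.65 and 7.97 CPM in mutant sorted endodermis, and at 2.64, 7.8 and 5.88 against 13.5, 18.5 and 18.6 CPM in whole root. ABCG16, an ABCG-type transporter, was at 7.23, 6.96 and 7.39 against 270, 91.8 and 147 CPM in sorted endodermis and at 3.87, 9.88 and 6.16 against 20.3, 27.3 and 27.5 CPM in whole root. Its mutant sorted libraries were far apart, whereas the wild-type ones were almost equal. LACS3, a long-chain acyl-CoA synthetase, was at 10.2, 10.5 and 9.48 against 39.8, 51.4 and 16.9 CPM in sorted endodermis and at 8.14, 9.93 and 8.98 against 31.8, 29.8 and 26.6 CPM in whole root. PES2, which makes phytyl esters in plastids, was at 0.204, 0.247 and 0.0564 against 12.8, 2.29 and 8.1 CPM in sorted endodermis, a ratio of 45.7 over a wild-type level of a few counts, and at 1.85, 0.418 and 1.53 against 5.75, 4.69 and 4.61 CPM in whole root. AT1G24430, an acyltransferase of the HXXXD type, was at 0.458, 0.7 and 0.226 against 2.68, 11.8 and 5.36 CPM in sorted endodermis, with means of 0.461 and 6.62 CPM, and had means of 5.44 and 16.8 CPM in whole root. Without the second mutant sorted library AT1G24430 and KNAT4 no longer met the rule.

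Of the detoxification genes, 3 were phi-class glutathione transferases, enzymes that join glutathione to reactive compounds. GSTF2 was at 90.2, 136 and 122 CPM in wild-type and 268, 349 and 406 CPM in mutant whole root, the highest mutant mean of any member there, and at 3.0, 3.01 and 3.95 against 40.7, 22.5 and 29.3 CPM in sorted endodermis. GSTF7 was at 14.6, 29.8 and 23.0 against 71.5, 147 and 174 CPM in whole root and at 0.916, 1.11 and 0.734 against 26.8, 27.4 and 9.07 CPM in sorted endodermis. GSTF6 was at 12.1, 21.4 and 21.1 against 114, 184 and 171 CPM in whole root and at 6.77, 3.71 and 6.04 against 56.9, 22.7 and 24.6 CPM in sorted endodermis. All 3 were higher in whole root than in sorted endodermis in either genotype. GSTF7 and GSTF6 were the only members that neighbour each other in the genome, with no gene between them and 1107 bases apart on chromosome 1. Of the 50-base windows in their exons, 10.3% for GSTF6, and a like share for GSTF7, also occur elsewhere among annotated exons, so that some reads of either may not be assigned to a single gene.

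The 250 bases before the annotated start of GSTF7, GSTF2 and FRK1 are shown because they share higher levels in both mutant tissues while differing in how much of the core TTGAC, bound by WRKY factors, they hold. They come from the TAIR10.1 assembly of RefSeq, on the minus strand in each case, at chr1:659981-660230 for GSTF7, chr4:1112034-1112283 for GSTF2 and chr2:8329945-8330194 for FRK1. Capitals mark TTGAC or its reverse complement GTCAA.
GSTF7: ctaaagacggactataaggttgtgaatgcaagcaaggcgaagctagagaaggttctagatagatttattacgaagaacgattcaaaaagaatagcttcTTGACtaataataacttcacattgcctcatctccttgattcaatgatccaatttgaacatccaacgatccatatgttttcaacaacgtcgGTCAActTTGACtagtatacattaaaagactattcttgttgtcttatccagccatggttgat
GSTF2: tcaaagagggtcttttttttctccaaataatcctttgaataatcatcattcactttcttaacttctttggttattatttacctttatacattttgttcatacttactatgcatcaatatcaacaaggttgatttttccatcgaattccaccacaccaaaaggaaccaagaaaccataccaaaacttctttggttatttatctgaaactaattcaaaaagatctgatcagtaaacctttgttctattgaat
FRK1: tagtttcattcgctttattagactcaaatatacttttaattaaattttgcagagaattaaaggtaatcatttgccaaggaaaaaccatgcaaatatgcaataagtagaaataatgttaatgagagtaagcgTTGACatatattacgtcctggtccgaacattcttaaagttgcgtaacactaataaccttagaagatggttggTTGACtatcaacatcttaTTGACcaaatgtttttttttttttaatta

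These windows hold 3 cores for GSTF7, 0 for GSTF2 and 3 for FRK1. Over windows from 250 bases before to 50 after the start, 22 of 36 members held the core on either strand, which is 61.1%, against 50.5% of 26711 protein-coding promoters. At least 2 cores occurred in 22.2% of members and 17.7% of all promoters. The TGACG box of TGA factors, which overlaps the core where a G follows it, occurred in 22.2% and 23.1%, the G-box CACGTG in 8.33% and 7.79%, and the GCC-box GCCGCC in 2.78% and 2.55%. Of the MYB elements of phenylpropanoid promoters, ACCTACC occurred in 0 members and 1.37% of all promoters, ACCAACC in 5.56% and 3.31%, and ACCTAAC in 2.78% and 2.88%. These shares are close to the background, and a match is only a match of letters.

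The remaining enzymes of specialised metabolism were IGMT2, FLS1, SDR2 and the transporter ABCC6. IGMT2, a methyltransferase of indole glucosinolate synthesis, was at 22.0, 22.4 and 29.1 CPM in wild-type and 109, 124 and 142 CPM in mutant whole root, and at 2.75, 1.61 and 5.81 against 34.5, 36.2 and 61.8 CPM in sorted endodermis. Of its exonic windows 36.7% occur in other exons, more than for any other member, so that its share of reads against the other IGMT genes is uncertain. FLS1, which makes flavonols, was at 42.7, 35.5 and 29.7 against 345, 195 and 179 CPM in sorted endodermis and at 23.3, 17.8 and 22.0 against 58.7, 53.8 and 67.6 CPM in whole root. SDR2 was at 2.6, 0.577 and 1.97 against 4.1, 3.17 and 13.2 CPM in sorted endodermis, where a single mutant library carries most of the difference. ABCC6 had the smallest ratio in sorted endodermis, with means of 5.37 and 15.9 CPM, and 6.80 and 21.8 CPM in whole root.

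HSP70-4, a cytosolic heat shock chaperone, had the highest mean CPM of any member in sorted cells of either genotype. It was at 114, 66.2 and 92.6 CPM in wild-type and 1953, 698 and 554 CPM in mutant sorted endodermis, and at 16.9, 19.1 and 12.6 against 47.4, 66.4 and 44.3 CPM in whole root. The first mutant sorted library stood well above the other mutant ones. AT4G38410, annotated as a dehydrin, was at 17.0, 16.4 and 39.0 against 82.2, 200 and 167 CPM in sorted endodermis and at 5.28, 4.13 and 3.34 against 52.0, 36.5 and 41.6 CPM in whole root. AT2G24600, an ankyrin repeat protein, was at 14.7, 8.4 and 15.2 against 94.0, 39.0 and 46.0 CPM in sorted endodermis and at 0.704, 0.51 and 0.621 against 7.92, 6.71 and 6.45 CPM in whole root. AT2G24600 resembled MYB15 in this distribution, with a larger ratio in whole root, 11.5, than in sorted endodermis, 4.67.

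AAP3, an amino acid permease, was at 0.458, 0.947 and 0.903 CPM in wild-type and 9.16, 34.3 and 6.18 CPM in mutant sorted endodermis, and at 16.9, 11 and 14.7 against 48.8, 65.0 and 83.4 CPM in whole root. CP1, a cysteine proteinase, had means of 5.54 and 17.6 CPM in sorted endodermis and 5.11 and 13.7 CPM in whole root. AT1G09932, annotated as a phosphoglycerate mutase family protein, had means of 17.4 and 109 CPM in sorted endodermis and 6.37 and 17.5 CPM in whole root. These genes thus had their higher level in different tissues, AAP3 in whole root and AT1G09932 in sorted cells. The 3 others were AT1G13340, a putative regulator of Vps4, AT2G34610, a cotton fiber protein, and AT5G10210, annotated as interacting with nitric oxide synthase. Their means in wild-type and mutant sorted endodermis were 1.49 and 19.0 CPM for AT1G13340, 1.71 and 9.29 CPM for AT2G34610, and 0.654 and 7.86 CPM for AT5G10210. For AT1G13340 the mutant sorted libraries were far apart, at 42.9, 5.21 and 8.79 CPM.

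Per kilobase of exon, HSP70-4 was the most abundant member in mutant sorted endodermis, at 424 CPM per kilobase, followed by AT3G13650 at 210, MYB15 at 168, PER37 at 166 and AT4G38410 at 150. In mutant whole root the order was EXT4 at 235 CPM per kilobase, GSTF2 at 232, GSTF6 at 132, GSTF7 at 108 and IGMT2 at 85.9. EXT4 and GSTF2 differ there by far less than the SD of either over its libraries, which for CPM was 81.1 for EXT4 and 69.4 for GSTF2. No gene is among the first 5 in both tissues.

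Whether a member was more abundant in sorted endodermis or in whole root was not part of the rule within either genotype, and was tested with edgeR over all genes. In wild type, 12 of the 35 members tested were higher in sorted endodermis and 15 were lower, where 33.4% and 35.4% of all tested genes were (68.7% in either direction), so that the shares are close to the background. PES2 was too low in wild type to be tested. The members higher in sorted wild-type cells were MYB15 at 5.92 ± 0.30, AT2G24600 at 4.59 ± 0.31, TCH3 at 3.36 ± 0.32, AT4G38410 at 2.72 ± 0.35, HSP70-4 at 2.71 ± 0.22, PER37 at 2.62 ± 0.30, ACS7 at 2.46 ± 0.22 and AT5G41750 at 2.03 ± 0.27 (log2 difference, SE), with WRKY71, AT1G09932, AT1G14550 and FLS1 between 1.00 and 1.93. The 15 lower ones included both laccases and all 3 glutathione transferases, with LAC5 at -5.09 ± 0.34, GSTF2 at -4.91 ± 0.21, GSTF7 at -4.35 ± 0.32, CYP86A4 at -4.16 ± 0.61, AAP3 at -3.96 ± 0.30 and EXT4 at -3.81 ± 0.27. AT1G24430, FRK1, IGMT2, AT5G10210, LAC13, AT2G34610, AT1G13340, GSTF6 and KNAT4 lay between -3.26 and -1.05. Without the third wild-type whole-root library AT1G14550 was no longer called, and without the first AT5G10210 was not. KNAT4 lost its call without the first sorted library or without the second or the third whole-root library. In 1 fit of all 12 libraries, KNAT4 (adjusted p = 0.124) and AT1G13340 (adjusted p = 0.0609) were not called.

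In the mutant, 15 of the 36 members were higher in sorted endodermis than in whole root and 8 were lower, where 12.3% and 17.3% of all tested genes were (29.6% in either direction). The 15 were the 12 of wild type together with PMEPCRB at 3.39 ± 0.29, ABCG16 at 3.02 ± 0.46 and AT3G13650 at 2.25 ± 0.30 (log2 difference, SE), which showed no called difference in wild type. Both shares may be set by the rule in part, since the same minimum mutant level was a condition of entry in each tissue. The 8 lower ones were EXT4 at -3.38 ± 0.25, GSTF2 at -3.22 ± 0.34, GSTF7 at -2.41 ± 0.51, LAC5 at -2.36 ± 0.41, GSTF6 at -1.90 ± 0.45, AAP3 at -1.84 ± 0.58, IGMT2 at -1.30 ± 0.27 and LAC13 at -1.22 ± 0.30. The calls depended more on single libraries here, and the reason was not tested. Without the third mutant whole-root library 3 members were called lower, and without the second 5, where the full data gave 8. Over all tested genes the number called lower was 3343 in the full data, 1808 without the third library and 1820 without the second. WRKY71 lost its call without the third mutant sorted library or without any of the mutant whole-root libraries (adjusted p up to 0.10).

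**Figure D2:**
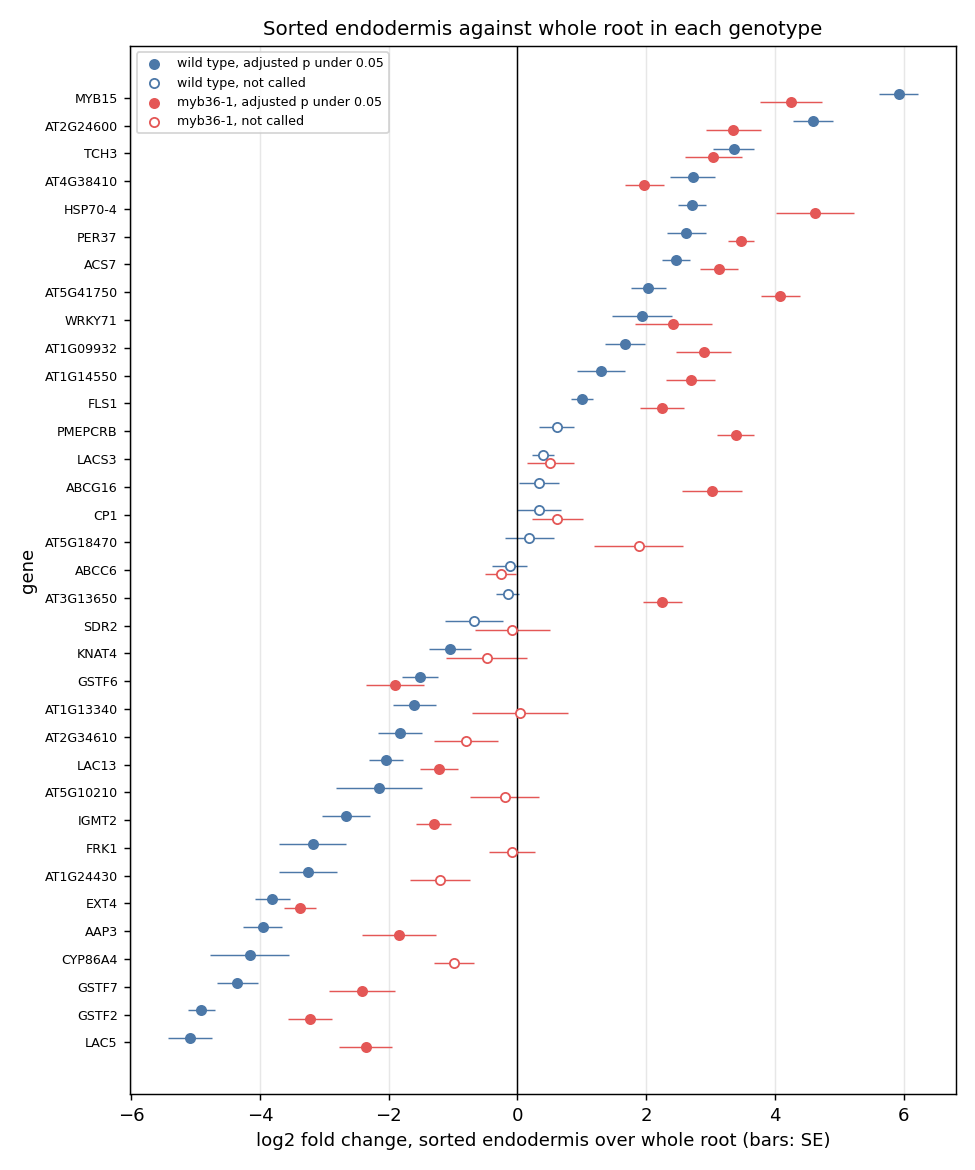
Difference between sorted endodermis and whole root in wild type (blue) and in myb36-1 (red), as a log2 fold change with its SE, for the 35 members tested in both genotypes. Filled points passed an adjusted p of 0.05 and open points did not. The 12 genes with filled blue points to the right of 0 also have filled red points there, and LAC5, GSTF2 and GSTF7 lie at the lower left in both.

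The test of the difference between the effects of the mutation in the 2 tissues is the interaction of genotype and tissue over all 12 libraries. The rule fixed the direction of both effects but not which was larger. The effect was larger in sorted endodermis for 14 of 36 members and smaller for 0, where 13.8% and 14.6% of all tested genes were called (28.4% in either direction). That background is not an equal comparison, since the rule asked for an effect in both tissues. Its conditions were met in sorted endodermis by 9.29% of tested genes and in whole root by 0.719%. The balance of larger and smaller effects may thus be set by the rule in part, and nothing is read from it. At an unadjusted p under 0.05, AT2G24600 and MYB15 had the smaller effect in sorted endodermis, at -1.23 ± 0.55 and -1.66 ± 0.60 (log2 difference of effects, SE, adjusted p = 0.112 and 0.0565). DESeq2 called MYB15 and limma-voom called 0.

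The genes with a called difference were PES2 at 3.49 ± 1.01, CYP86A4 at 3.20 ± 0.73, FRK1 at 3.09 ± 0.65, PMEPCRB at 2.78 ± 0.38, LAC5 at 2.74 ± 0.59, ABCG16 at 2.69 ± 0.58 and AT3G13650 at 2.41 ± 0.36 (log2 difference of effects, SE), followed by AAP3 at 2.12 ± 0.72, AT1G24430 at 2.08 ± 0.70, AT5G41750 at 2.06 ± 0.39, GSTF7 at 1.95 ± 0.65, HSP70-4 at 1.91 ± 0.61, GSTF2 at 1.69 ± 0.39 and FLS1 at 1.24 ± 0.39. These 14 thus include genes of lipid metabolism, a pectin methylesterase, a laccase, a dirigent-like protein, a receptor kinase, a resistance protein and glutathione transferases. The adjusted p stayed under 0.05 in each of the 17 alternative settings for PMEPCRB, with a highest value of 0.00285, AT3G13650 at 0.00226, AT5G41750 at 0.0105, FRK1 at 0.0149, LAC5 at 0.0159, CYP86A4 at 0.021, ABCG16 at 0.0239 and GSTF2 at 0.0298. It passed 0.05 in some settings for AAP3, with a highest value of 0.129, AT1G24430 at 0.113, GSTF7 at 0.195, HSP70-4 at 0.0893, FLS1 at 0.076 and PES2 at 0.0586. The count of 14 was 9 without the first or second mutant whole-root library, the third wild-type sorted library or the third wild-type whole-root library. For GSTF6, next to GSTF7, the difference of effects was -0.39 ± 0.56 (SE, adjusted p = 0.642).

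**Figure D3:**
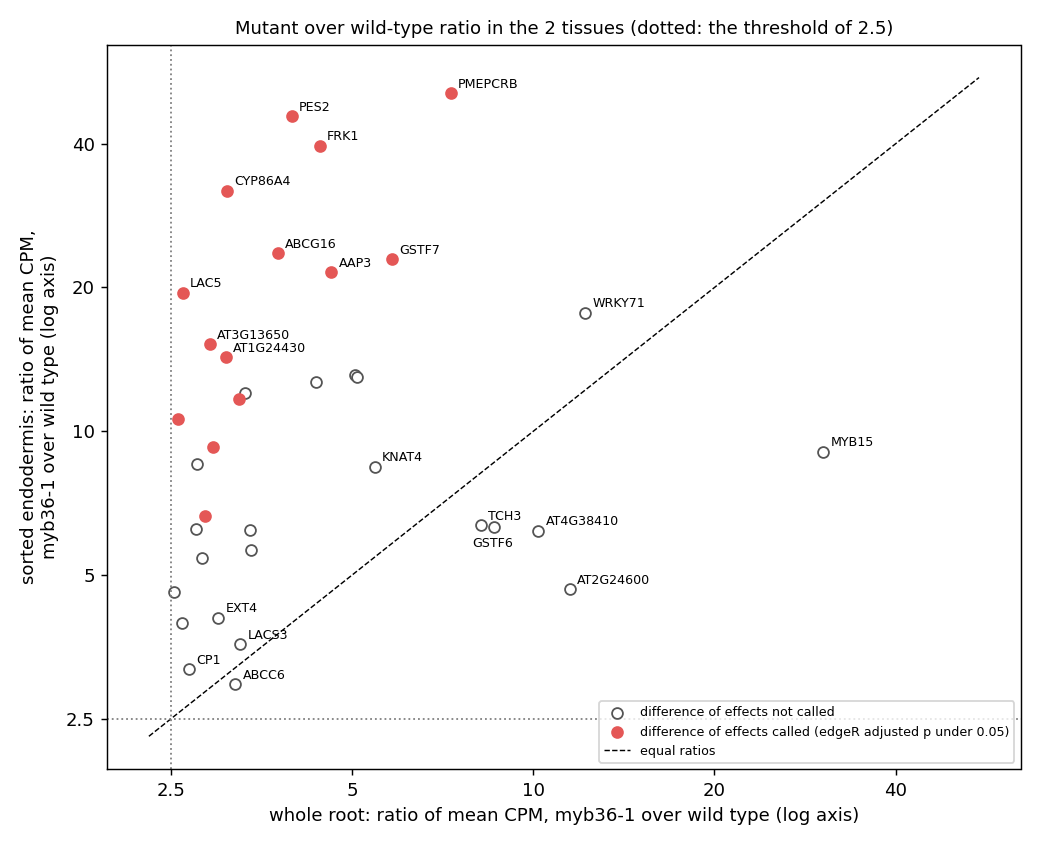
Ratio of mean CPM, myb36-1 over wild type, in whole root (horizontal) and sorted endodermis (vertical) for the 36 members, on log axes. Dotted lines mark the threshold of 2.5, the dashed line equal ratios, and red points the 14 members whose effects differed between the tissues. All red points lie above the dashed line, while MYB15 and AT2G24600 lie farthest below it.

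Markers of wounding and rapid stress moved with the tissue comparisons. Apart from the members TCH3 and HSP70-4, all 10 genes of that list were higher in wild-type sorted endodermis than in whole root and 9 of 10 in the mutant, where 33.4% and 12.3% of all tested genes were. Their summed level was 1505 to 2106 CPM in wild-type and 2380 to 5789 CPM in mutant sorted endodermis, and 147 to 170 against 201 to 220 CPM in whole root. Between the genotypes, 6 of 10 were higher in mutant sorted endodermis, among them WRKY33 (388 ± 73.3 against 1083 ± 418 CPM, SD, n = 3) and CML37 (8.43 ± 2.43 against 159 ± 80.2 CPM), and 3 of 8 tested were higher in mutant whole root, WRKY33, WRKY40 and WRKY53, where 15.6% and 3.25% of all tested genes were called higher. By edgeR 0 genes of the list were called lower in either tissue. The part of this response in the members' values was not tested.

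Mutant sorted libraries varied more than others. The median coefficient of variation of the members there was 49.1%, against 31.9% for all genes with a mean of at least 5 CPM, and 14.6% in mutant whole root. The members' CPM summed to 4827, 2773 and 2897 in the 3 mutant sorted libraries. Of the 12 members higher in sorted wild-type cells than in whole root, 8 had their highest mutant sorted value in the first library, and of the 15 lower ones 8 had it in the second. Of all genes with a mean of at least 5 CPM, 27.9% were highest in the first and 43.1% in the second. Sums in whole root were closer together, at 1664, 1807 and 1925 CPM in the mutant and 448, 514 and 511 CPM in wild type.

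Other genes of pattern-triggered immunity and defence lignin, without the members FRK1 and MYB15, were called higher in the mutant for 5 of 14 in sorted endodermis and 5 of 14 in whole root, and lower for 0 in either, with median log2 changes of 1.24 and 0.43. Of all tested genes, 15.6% were called higher and 12.9% lower in sorted endodermis, and 3.25% and 2.85% in whole root. In sorted endodermis the 5 were the oxidase RBOHD (30.5 ± 1.16 against 152 ± 98.7 CPM, SD, n = 3), the chitin receptor kinase CERK1, the peptide precursor PROPEP3 (33.6 ± 5.61 against 104 ± 14 CPM) and the peptide receptors PEPR1 (78.8 ± 22.0 against 387 ± 250 CPM) and PEPR2. In whole root they were RBOHD, PROPEP1, PROPEP3, MYB51 and CYP81F2, a P450 of indole glucosinolate metabolism, at 1.72 ± 0.732 against 22.2 ± 3.13 CPM. The flagellin receptor FLS2 was low throughout, at 0.425 to 1.58 CPM by group mean, and its co-receptor BAK1 was at 218 ± 15.6 against 217 ± 33.1 CPM in sorted endodermis.

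Of 13 genes of salicylic acid and systemic defence, 8 were tested in sorted endodermis, where PAD4, EDS1, FMO1 and SARD1 were higher in the mutant and SAG101 was lower. In whole root FMO1 (0.489 ± 0.0742 against 4.04 ± 0.438 CPM, SD, n = 3), CBP60G and SARD1 were higher, 3 of 9 tested. The defence protein gene PR1 had 0 counts in all 12 libraries, which allows at most 0.412 CPM in the smallest. Of 13 genes of jasmonate and ethylene defence, the chitinase CHI-B and the allene oxide synthase AOS were higher among 6 tested in mutant sorted endodermis. These counts stand beside 15.6% of all tested genes called higher and 12.9% lower in sorted endodermis, and 3.25% and 2.85% in whole root. Among 8 tested in whole root, CHI-B was higher and ACS2, another ACC synthase, was lower, at 7.73 ± 3.15 against 1.13 ± 0.278 CPM, the reverse of ACS7. Both PDF1.2 defensin genes had 0 counts throughout.

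The families of some members behaved unevenly, by gene groups drawn up after the members were known. Their calls stand beside 15.6% of all tested genes called higher and 12.9% lower in mutant sorted endodermis. The shares in mutant whole root were 3.25% and 2.85%. Among the other phi-class glutathione transferases, GSTF8 (223 ± 5.42 against 926 ± 233 CPM, SD, n = 3, adjusted p = 0.0017) and GSTF10 were higher of 3 tested in mutant sorted endodermis, and 0 of 4 were called in whole root. Among the other laccases, LAC12 was higher in both tissues, at 0.0632 ± 0.0168 against 17.7 ± 4.32 CPM in sorted endodermis and 0.256 ± 0.174 against 15 ± 2.17 CPM in whole root. LAC1 was higher in sorted endodermis, while LAC3 and LAC16 were lower in whole root. Grouped by gene symbol, the other laccases tested numbered 6 in sorted endodermis and 11 in whole root. Grouped by annotated product, they numbered 9 and 14. Of these, 2 were higher and 1 lower in sorted endodermis, and 1 higher and 2 lower in whole root. LAC12 meets the same thresholds, as AT5G05390, and is dropped by the rule. Of the 4 other transporters of the suberin group, all tested in both tissues, ABCG2, ABCG20 and ABCG6 were higher in mutant sorted endodermis. In whole root ABCG2 and ABCG1 were higher, ABCG1 at 4.12 ± 0.658 against 16.9 ± 0.539 CPM. Among the 7 other long-chain acyl-CoA synthetases, LACS2, LACS4, LACS6 and LACS8 were higher and LACS1 was lower in mutant sorted endodermis. In whole root, where the same number was tested, LACS2 was higher and LACS1 lower. CYP86A2 changed in opposite directions. It went from 8.69 ± 1.57 to 2.28 ± 1.38 CPM in sorted endodermis and from 36.8 ± 8.36 to 72.3 ± 17.1 CPM in whole root. CYP86A8 was called in sorted endodermis alone, at 0.328 ± 0.124 against 11.4 ± 5.03 CPM (adjusted p = 0.00107). Of the other amino acid permeases AAP1 was higher in both tissues, and of the flavonol synthases FLS3 was higher in sorted endodermis. Of the other genes with an ACS symbol, grouped by name and not by enzyme activity, 2 of 7 were higher in sorted endodermis, ACS11 and ACS12. In whole root 1 of 8 was higher and 2 were lower. Other KNAT genes had 0 of 5 and 0 of 6 called.

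The annotated genes directly beside the members were mostly not called, but a larger share was called higher than over all tested genes. That excess was not tested. Leaving out members, 13 of 50 tested were higher and 4 lower in mutant sorted endodermis, where 15.6% and 12.9% of all tested genes were. In mutant whole root 8 of 52 were higher and 0 lower, where 3.25% and 2.85% of all tested genes were. GPAT4, a cutin acyltransferase gene 355 bases from CYP86A4, was at 2.55 CPM in wild-type and 49.2 CPM in mutant sorted endodermis (adjusted p = 0.000372) but at 45.9 and 60.2 CPM in whole root (adjusted p = 0.114). AT5G41740, 712 bases from AT5G41750, was at 0.379 and 20 CPM in sorted endodermis (adjusted p = 0.00198) and at 1.2 and 1.22 CPM in whole root. Both neighbours were thus called in sorted endodermis alone, a contrast between tissues that was not tested for them. Of the 50-base windows in the exons of AT5G41750, 12.3% also occur elsewhere among annotated exons. Some of its reads may thus not be assigned to a single gene. PER4, beside the peroxidase AT1G14550, was called in both tissues, at 13.9 and 90.6 CPM and then 10.7 and 24.9 CPM. IGMT2 lies between IGMT3, at 2.55 and 42.1 CPM in sorted endodermis, and IGMT4, at 17.5 and 46.6 CPM in whole root, and each of these was called in the tissue named and not in the other. Of the 36 members 12 lie on chromosome 1, 5 on chromosome 2, 7 on chromosome 3, 6 on chromosome 4 and 6 on chromosome 5.

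In the annotation, 8 members overlap a gene on the opposite strand, namely AT1G13340, AAP3, FRK1, TCH3, PES2, GSTF2, AT5G10210 and AT5G18470. Whether counting used the strand is not stated in the labels, so reads of these genes and of their partners may not be separated. TOC159, the partner of GSTF2, was at 73.6 and 132 CPM in wild-type and mutant sorted endodermis (adjusted p = 0.0121) and at 129 and 138 CPM in whole root (adjusted p = 0.733). The authors' deposited table of FPKM, which has 1 value per genotype and tissue, could be matched for 34 of the 36. Of 28 single-gene rows with a completed test in sorted endodermis, the mutant FPKM was at least 2.5 times the wild-type FPKM in 28, and of 31 in whole root in 30. In the authors' deposited table the exception was AT5G41750, which was just inside the ratio by CPM. There MYB15 stood at 22.5 and 316 FPKM in sorted endodermis and at 0.48 and 12.9 FPKM in whole root in the authors' deposited table. These values come from the same libraries and are a check of the counting only.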

How the data were processed

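Per the labels, RNA of 12 libraries was sequenced after a strand-specific preparation. The authors deposited raw counts per gene for all libraries, and FPKM tables with 1 value per genotype in each tissue (replicates pooled), per the file headers. TopHat2, SAMtools, Cufflinks, Cuffdiff and HTSeq and the build TAIR10 are named in the submitters' processing notes. Versions and roles, and whether counting used the strand, do not appear in the labels.

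The test was edgeR's quasi-likelihood one (version 4.0.16, R 4.3.3) after TMM scaling and a low-count filter by group with filterByExpr, with Benjamini-Hochberg adjustment over all genes tested and calls at an adjusted p under 0.05. An SE is the absolute log2 difference divided by the square root of F. Sorted endodermis was compared with whole root within each genotype, and the interaction was fitted over all 12 libraries. DESeq2 1.42.0, limma-voom 3.58.1, upper-quartile factors, no low-count filter, a replicate block, 1 fit of all libraries and leaving out each library were the alternatives. Levels are CPM by column sum, as mean ± SD over 3 libraries, or per library in replicate order, wild type first. Floors of 3 counts cover counting error only. Tested on simulated data with 200 genes changed 4-fold, the fit recovered 200 in the wild-type tissue comparison, 129 in the mutant one and 126 for the interaction. False calls numbered 15, 6 and 6. The changed genes had a mean of at least 5 CPM over the libraries compared, so recovery at lower levels was not tested.

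Members, marker lists and pathway lists were chosen with earlier results of these data known. All members are named, with full values for those with the largest ratios, levels and differences, threshold neighbours and genes of sure role. Of the loci, 32835 matched TAIR10.1, which supplied names, positions and sequences. Positions are therefore those of TAIR10.1 and not of the authors' files. Motifs were searched on both strands. P-values set a fitted difference against the spread between the deposited replicates.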

Additional observations from a re-analysis of the deposited data

Results flagged for a closer look

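For 14 genes the effect of the mutation differed between sorted endodermis and whole root by the interaction test, each with the larger effect in sorted endodermis. As log2 differences of the effects, these were 3.49 for PES2, 3.20 for CYP86A4, 3.09 for FRK1, 2.78 for PMEPCRB, 2.74 for LAC5, 2.69 for ABCG16, 2.41 for AT3G13650, 2.12 for AAP3, 2.08 for AT1G24430, 2.06 for AT5G41750, 1.95 for GSTF7, 1.91 for HSP70-4, 1.69 for GSTF2 and 1.24 for FLS1. For PES2, CYP86A4, FRK1, LAC5, AT1G24430, AAP3 and GSTF7 the wild-type sorted mean was under 1 CPM. Over all tested genes, 13.8% were called with a larger and 14.6% with a smaller effect in sorted endodermis. The rule chose the members by these same effects, so their shared direction may be set by it in part. AAP3, AT1G24430, GSTF7, HSP70-4, FLS1 and PES2 lost their calls in some of the alternative settings. Groups of 3 libraries were too small to test single libraries as outlying.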

How the results depend on the processing

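The wild-type tissue counts of 12 higher and 15 lower stayed within 11 to 13 and 14 to 16 when a library was left out, and the mutant counts of 15 higher and 8 lower ranged over 14 to 18 and 3 to 9. The interaction count of 14 ranged over 9 to 16 without single libraries and was 10 with limma-voom, and the count of members with a smaller effect in sorted endodermis ranged over 0 to 2 without single libraries. That last count of 0 became 1 with DESeq2, 1 without the low-count filter and 1 with upper-quartile factors. The number of members ranged over 30 to 41 without single libraries, and was 55 with a minimum of 2 CPM and 22 with a minimum of 10 CPM. In mutant roots AT1G13340 was at 0.04 (log2 difference between the tissues), ranged up to 0.56 without single libraries, and turned to -1.58 without the first mutant sorted library. The causes were not tested. Against the main fit the median over all genes shifted by -0.115 in the mutant tissue comparison and -0.132 in the interaction with limma-voom, and by -0.144 in the wild-type tissue comparison without the filter. Some wild-type sorted means below 1 CPM rest on few counts. Over the 3 libraries these were 11 for PES2, 13 for FRK1 and 16 for CYP86A4, but 58 for GSTF7.

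Replicate numbers were not taken to pair the samples, since not every same-numbered pair correlated above 0.1. Residuals of same-numbered sorted and whole-root libraries correlated at 0.042 to 0.123 in wild type and at -0.0722 to -0.0399 in the mutant, and in wild type 5 of 6 libraries correlated best with their own number, as a hint from the data and not the design. Between the genotypes the same-number correlations were -0.000988 to 0.173 in sorted endodermis and -0.0465 to 0.24 in whole root. With the replicate number as a block, the wild-type counts were 12 and 15, the mutant counts 15 and 8, and the interaction counts 12 larger and 2 smaller in sorted endodermis, with a shift of -0.107 in the median of the mutant tissue comparison.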
